A study of Homo sapiens with 6 samples.

Results

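The Toll-like receptors are described here in THP-1, an established line grown from a human monocytic leukaemia, through the probe sets of TLR1 to TLR10. Each of the 10 genes was found by its symbol in the array annotation and had 1 probe set, 10 of the 21448 on the array, and the series holds 17687 named genes in all. All cultures, the control included, had been turned into macrophage-like cells with 100 ng/ml PMA, a phorbol ester, for 2 days and were then transfected for 24 h with a mimic of let-7d-3p or of let-7e-5p, of miR-146a-5p or of miR-130a-3p, of miR-151a-3p, or with the negative control mimic (mimic NC). A mimic is a synthetic RNA that acts as the mature miRNA, and its dose is not given in the sources used here. Each mimic and mimic NC was measured on 1 Affymetrix Human Clariom S array, 6 arrays in all, so that no value has a replicate and no difference could be tested against spread between cultures. The treatment text names a let-7a-5p mimic for all samples, and the groups were therefore taken from the titles. The control is titled mimic NC 2, what the 2 stands for is not stated, and every difference below rests on that 1 array.

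Toll-like receptors are membrane proteins that bind conserved parts of microbes and pass the signal through adaptor proteins to NF-kB and to interferon regulatory factors. TLR1, TLR2, TLR4, TLR5, TLR6 and TLR10 sit mainly at the cell surface and several of them bind parts of the bacterial envelope or flagellum, while TLR3, TLR7, TLR8 and TLR9 sit in endosomes and bind nucleic acids. TLR3 binds double-stranded RNA and signals through the adaptor TRIF (gene TICAM1), TLR4 uses both TRIF and MyD88, and most of the others use MyD88. The study followed TLR3 together with the cytosolic RNA sensors RIG-I and MDA5 by quantitative PCR. It did so in THP-1 cells given a let-7a-5p mimic, which by the titles is not among the mimics described here. Here the comparison of each mimic with mimic NC asks whether a single miRNA alters such genes.

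The mature sequences of the transfected miRNAs are shown because they are what differed between the cultures. RefSeq (GRCh38.p14) sequences were matched for 3 of the 5, in which capitals mark the seed, bases 2 to 8, with which a miRNA pairs with its targets. The entries for miR-130a-3p and miR-151a-3p are named only.
let-7d-3p: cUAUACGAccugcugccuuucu
let-7e-5p: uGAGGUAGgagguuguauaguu
miR-146a-5p: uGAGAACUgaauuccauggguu
They are encoded at chr9:94178895-94178916, chr19:51692793-51692814 and chr5:160485372-160485393, all on the plus strand. The 3 seeds differ from each other, so let-7d-3p and let-7e-5p, although both come from let-7 precursors, do not share a seed.

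Array medians of the log2 signal lay between 6.92 and 6.95. Background was taken as 5.39, the 95th percentile over 349 probe sets for olfactory receptors, and each array had 13585 to 13869 probe sets brighter than that. The labels call the cells both THP-1 and lymphocyte-like. Of 11 macrophage and monocyte markers with a probe set, 10 were above background on all arrays, among them CD68, ITGAM, CSF1R and SPI1, and their summed signal lay between 17.5 and 17.61 log2 with the mimics against 17.57 after mimic NC. Of 8 T and NK cell markers only CD3E and NCAM1 were above background on all arrays, while CD3D, CD2 and CD8A never were (summed signal 8.6 to 8.87 with the mimics against 8.51). Of 6 B cell markers CD79A, CD79B and PAX5 were above it and MS4A1 never was (8.77 to 9.14 against 9.13). For plasmacytoid dendritic cells, IL3RA and TCF4 of 5 were above background on all arrays and CLEC4C never was (12.37 to 13.03 against 12.54). That sum is nearly the signal of TCF4 alone, which was 12.31 to 12.99 with the mimics and 12.49 after mimic NC. Of 4 neutrophil markers 0 were above background on all arrays (6.55 to 7.07 against 6.83), and of 7 epithelial and fibroblast markers COL1A2 and PDGFRA were, with EPCAM and CDH1 below it throughout (9.19 to 9.53 against 9.65). Each sum follows the brightest probe sets of its list, so the sums are not compared between cell types. The part of such markers in the receptor signals was not tested. In RNA of whole cultures, fewer cells that express a gene and less of its RNA per cell cannot be told apart.

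Of the 10 receptors 7 were above background on all 6 arrays, namely TLR1, TLR2, TLR3, TLR4, TLR6, TLR7 and TLR8. TLR5, the receptor for flagellin, was above it on 3 arrays. TLR9, which binds unmethylated CpG DNA, and TLR10, a surface receptor without a settled ligand, were below it on every array, so that no fold is given for them. The signal of TLR9 was 4.01 after let-7d-3p, 3.64 after let-7e-5p, 3.4 after miR-146a-5p, 3.5 after miR-130a-3p and 3.63 after miR-151a-3p, against 3.43 after mimic NC. That of TLR10 was 3.76, 3.99, 3.72, 4.7 and 4.05 with the mimics in the same order, against 3.91 after mimic NC. Signals of different probe sets are not on a common scale, so each receptor is compared with itself across the arrays. By RefSeq gene order, TLR10, TLR1 and TLR6 are neighbours on chromosome 4, and TLR7 and TLR8 on chromosome X. TLR1 and TLR6 are close paralogs, and whether their probe sets share signal was not tested.

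**Figure D1:**
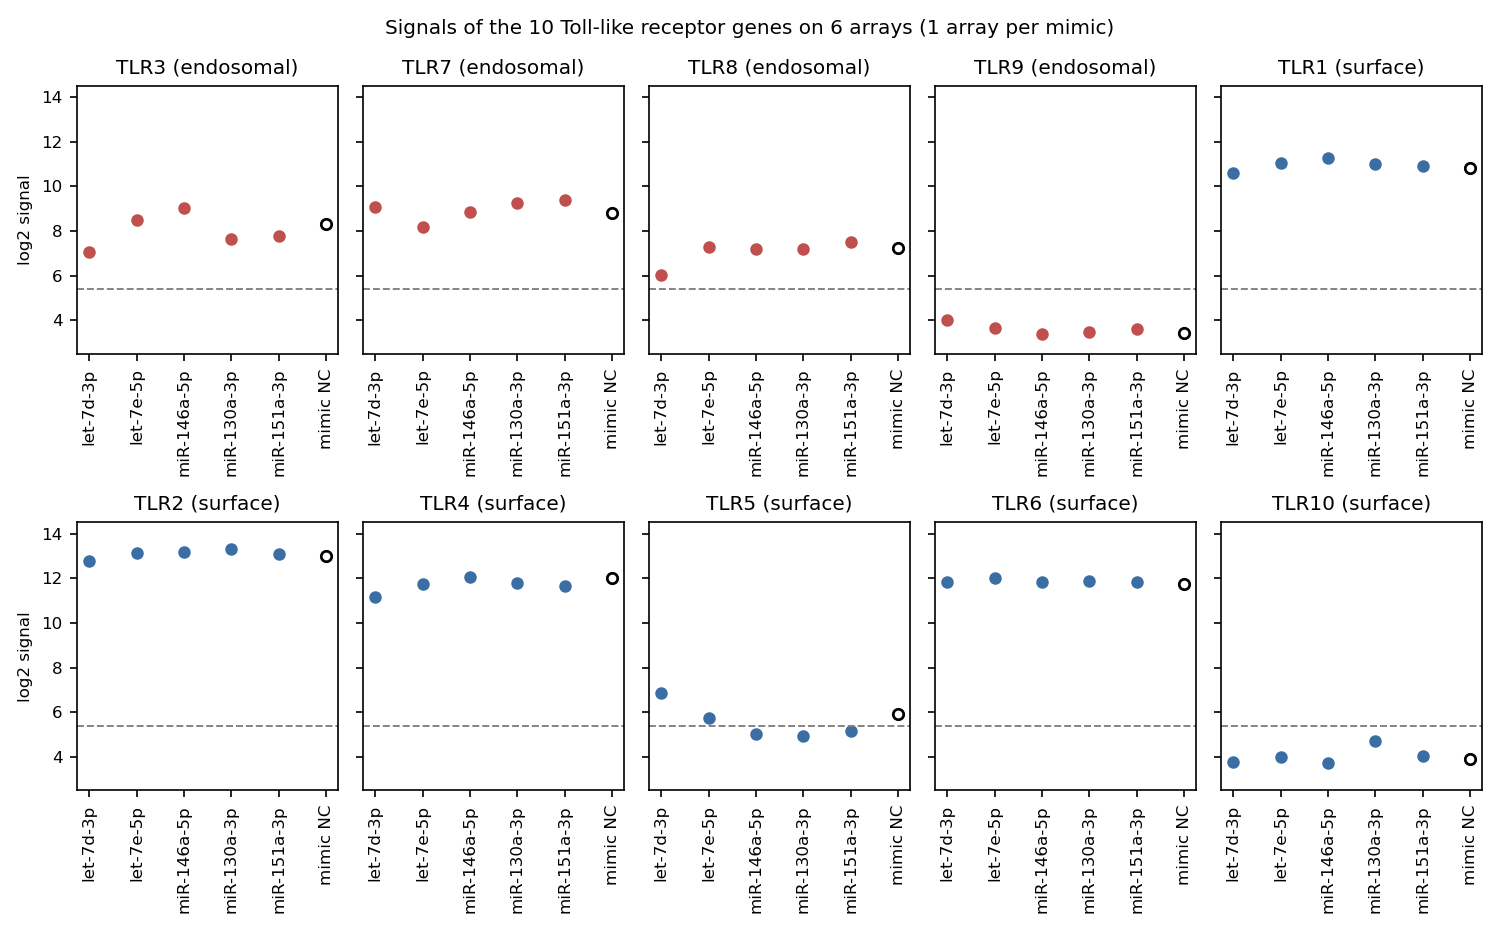
Log2 signal of each receptor gene on the 6 arrays (1 array per mimic, mimic NC as the open circle at the right of each panel), with endosomal receptors in red, surface receptors in blue and the background of 5.39 as a dashed line. TLR3 lies between 7.08 and 9.02 and TLR8 between 6.04 and 7.53, TLR6 stays between 11.76 and 12.01, and TLR9 and TLR10 lie below the dashed line on all arrays.

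Among the receptors above background on all arrays, the endosomal ones varied more over the 6 arrays than the surface ones. From the lowest to the highest array, TLR3 spanned 1.94 log2 units (3.84-fold), TLR8 1.49 (2.81-fold) and TLR7 1.23 (2.35-fold). The surface receptors spanned 0.88 for TLR4, 0.65 for TLR1, 0.54 for TLR2 and 0.25 for TLR6. The ranges of these 3 endosomal and 4 surface genes did not overlap, which depended on the background used, as given below. Among the 10888 named probe sets above background on all arrays the median range was 0.47, and 0.175% of them spanned at least as much as TLR3, 0.634% as much as TLR8 and 1.81% as much as TLR7, against 10.4% for TLR4 and 87.1% for TLR6.

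The probe sets of the 2 classes also lie at different signals, and dimmer probe sets varied more. At mean signals from 6.5 to 9.5, which hold the 3 endosomal receptors, the median range was 0.57 over 4099 probe sets, and 0.171% reached the range of TLR3, 0.927% that of TLR8 and 2.59% that of TLR7. At mean signals from 10 to 14, which hold the 4 surface receptors, the median range was 0.38 over 4365 probe sets, and 4.74% reached the range of TLR4, 13.2% that of TLR1, 23.1% that of TLR2 and 82% that of TLR6. TLR5, a surface receptor, spanned 1.93, but 3 of its signals were under background. Counted only from the background of 5.39 to its highest signal of 6.86, it still spanned more than TLR7. With background at the 99th percentile of the olfactory receptor probe sets (6.82), the lowest TLR8 signal (6.04) is under it. Counted from 6.82 to its highest signal of 7.53, TLR8 spans less than TLR4.

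**Figure D2:**
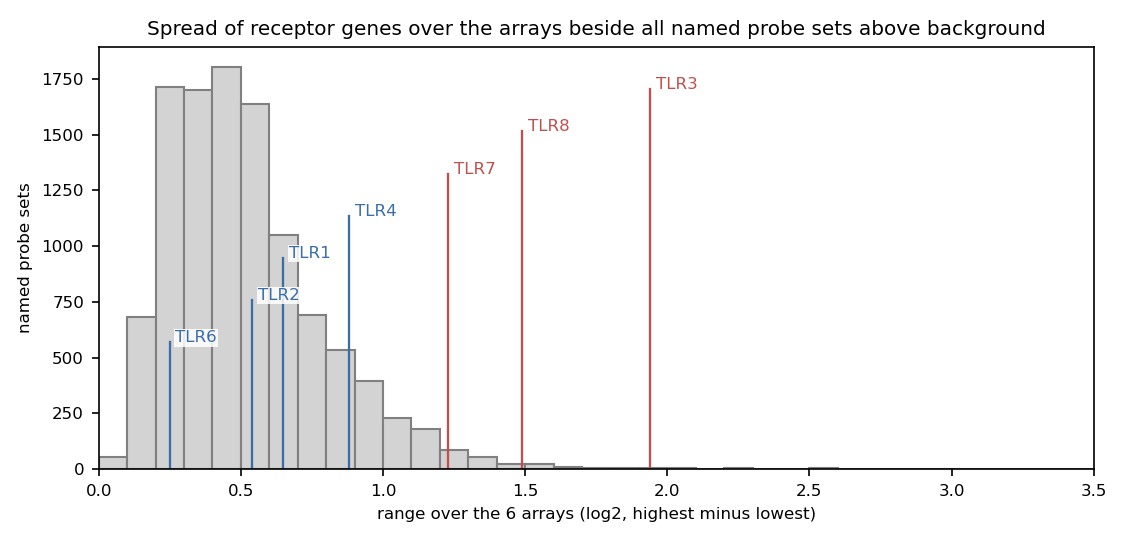
Histogram of the range over the 6 arrays (log2, highest minus lowest array) of the named probe sets above background on all arrays, with vertical lines at the 7 receptors that were above background on all of them; red lines are endosomal and blue lines surface receptors, and line heights only separate the names. TLR7, TLR8 and TLR3 lie in the right tail at 1.23, 1.49 and 1.94, and TLR6 near the left end at 0.25.

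TLR3 was low after let-7d-3p and high after miR-146a-5p. Its signal was 7.08 after let-7d-3p, 8.48 after let-7e-5p, 9.02 after miR-146a-5p, 7.66 after miR-130a-3p and 7.8 after miR-151a-3p, against 8.32 after mimic NC. It was thus 2.36-fold lower than mimic NC after let-7d-3p, 1.58-fold lower after miR-130a-3p and 1.43-fold lower after miR-151a-3p, and 1.62-fold higher after miR-146a-5p, while after let-7e-5p it was near mimic NC (1.12-fold higher). The choice of comparator mattered. Against the median over the 4 remaining mimic arrays, TLR3 was 1.68-fold higher after let-7e-5p and 2.45-fold higher after miR-146a-5p. By that comparator it was 2.08-fold lower after let-7d-3p, 1.39-fold lower after miR-130a-3p and 1.21-fold lower after miR-151a-3p.

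TLR8, which binds single-stranded RNA, stood apart on 1 array. Its signal was 6.04 after let-7d-3p, 7.3 after let-7e-5p, 7.19 after miR-146a-5p, 7.2 after miR-130a-3p and 7.53 after miR-151a-3p, against 7.24 after mimic NC. After let-7d-3p it was 2.3-fold lower than after mimic NC, while the other 5 arrays lay close together at 7.19 to 7.53. The low signal was near background. With background set at the 99th percentile of the olfactory receptor probe sets (6.82) the difference is only bounded, at least 1.34-fold lower.

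TLR7, the other receptor for single-stranded RNA and the neighbour of TLR8, had a different order. Its signal was 9.1 after let-7d-3p, 8.18 after let-7e-5p, 8.84 after miR-146a-5p, 9.26 after miR-130a-3p and 9.41 after miR-151a-3p, against 8.8 after mimic NC. It was lowest after let-7e-5p, 1.54-fold below mimic NC and 2.0-fold lower than the median over the 4 remaining mimics, and highest after miR-151a-3p, 1.53-fold above mimic NC. After let-7d-3p, where TLR3 and TLR8 had their lowest signals, TLR7 was 1.23-fold above mimic NC. The 3 measured endosomal receptors therefore did not share an order of the arrays.

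TLR4, which recognises lipopolysaccharide, had the widest range of the surface receptors above background on all arrays. Its signal was 11.17 after let-7d-3p, 11.75 after let-7e-5p, 12.05 after miR-146a-5p, 11.78 after miR-130a-3p and 11.65 after miR-151a-3p, against 12.02 after mimic NC. Only let-7d-3p lay far from mimic NC, at 1.8-fold lower (1.51-fold lower than the median over the 4 remaining mimics). After miR-151a-3p TLR4 was 1.29-fold lower and after let-7e-5p 1.21-fold lower, and after miR-146a-5p the arrays differed by 0.03 log2.

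The receptors for bacterial lipoproteins stayed closer to mimic NC. TLR2, which pairs with TLR1 or TLR6, had signals of 12.79 after let-7d-3p, 13.13 after let-7e-5p, 13.19 after miR-146a-5p, 13.33 after miR-130a-3p and 13.07 after miR-151a-3p, against 12.98 after mimic NC. Its largest difference was 1.27-fold, after miR-130a-3p. TLR1 was lowest after let-7d-3p (10.61) and highest after miR-146a-5p (11.26, 1.36-fold above the 10.82 of mimic NC). TLR6 had its lowest signal with mimic NC (11.76) and was at most 1.19-fold above it, after let-7e-5p (12.01). TLR1, TLR2, TLR3, TLR4 and TLR8 all had their lowest of the 6 signals after let-7d-3p, 5 of the 7 receptors above background on all arrays, and the exceptions were TLR6 and TLR7. Of the 10888 named probe sets above background on all arrays, 24.3% had their lowest signal on that array, ties counted.

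TLR5 differed in the other direction, although at signals around background. It was 6.86 after let-7d-3p and 5.76 after let-7e-5p, against 5.94 after mimic NC, and below background after miR-146a-5p (5.03), miR-130a-3p (4.93) and miR-151a-3p (5.15). After let-7d-3p it was 1.89-fold higher than with mimic NC. With each of the 3 mimics under background it was at least 1.47-fold lower, counted from the background level. Against the 99th percentile background the difference after let-7d-3p shrinks to at least 1.03-fold.

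A threshold of 1.5-fold against mimic NC, taken on the deposited signals with the brighter array above background, was passed by 4 of the 10 receptors after let-7d-3p. TLR3, TLR4 and TLR8 were lower, while 3.44% of the 12290 named probe sets above background on at least 1 array were lower by that much, and TLR5 was higher, against 3.36% of probe sets. After let-7e-5p TLR7 was lower (background 2.25%) and no receptor was higher (2.66%). After miR-146a-5p TLR3 was higher (3.21%) and TLR5 lower (2.42%). After miR-130a-3p TLR3 and TLR5 were lower (3.09%) and no receptor was higher (3.6%). After miR-151a-3p TLR7 was higher (4.05%) and TLR5 lower (3.85%). Each of these last counts is 1 or 2 of 10 genes, and the 3 counts that hold TLR5 with a signal under background rest on a difference only bounded at 1.47-fold. The threshold is passed more often by dim probe sets: after let-7d-3p, by 13.5% of those with a mean signal from 5.39 to 7, by 8.13% of those from 7 to 9 and by 2.15% of brighter ones.

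**Figure D3:**
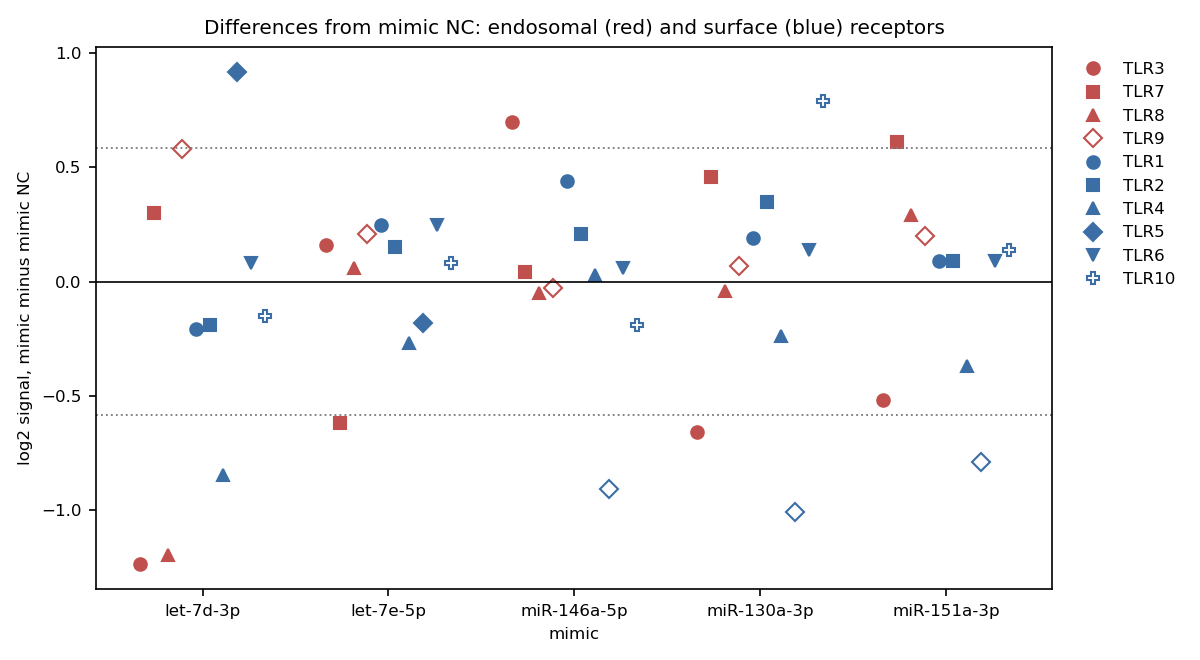
Difference in log2 signal between each mimic and mimic NC for the 10 receptors (1 array each), endosomal in red and surface in blue; open symbols mark differences in which 1 or both signals were under background, and dotted lines mark 1.5-fold. After let-7d-3p TLR3 and TLR8 are lowest at -1.24 and -1.2 and TLR5 is highest at 0.92, while after miR-146a-5p TLR3 stands at 0.70.

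As a class, the endosomal receptors were not set apart from the surface receptors in one direction. After let-7d-3p the median log2 ratio of the 4 endosomal genes was -0.45 and that of the 6 surface genes -0.17, a difference of -0.28. That difference rested on single genes: it was 0.47 without TLR3 and also 0.47 without TLR8, where TLR7, at 0.30, was then the middle of the 3 values and the highest was TLR9, below background on both arrays. Over the receptors above background on all arrays (3 endosomal and 4 surface) the medians were -1.2 and -0.2. The endosomal ratios spanned -1.24 to 0.30 and the surface ratios -0.85 to 0.08, so the classes overlapped.

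With the other mimics the class medians lay closer together. The endosomal median minus the surface median was -0.005 after let-7e-5p (0.11 and 0.115), -0.04 after miR-146a-5p (0.005 and 0.045), -0.15 after miR-130a-3p (0.015 and 0.165) and 0.155 after miR-151a-3p (0.245 and 0.09). These medians include TLR9 and TLR10, which were below background on every array. Over the receptors above background on all arrays the difference was -0.14 after let-7e-5p, -0.095 after miR-146a-5p, -0.205 after miR-130a-3p and 0.2 after miR-151a-3p. The median over all 10 receptors was -0.17 after let-7d-3p, 0.115 after let-7e-5p, 0.035 after miR-146a-5p, 0.105 after miR-130a-3p and 0.09 after miR-151a-3p. The same median over all named probe sets above background was between -0.02 and 0.02. The genes of 1 array are not replicates and the 5 comparisons share the mimic NC array, so these values are descriptions of the arrays.

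Of the 7 receptors above background on all arrays, TLR3 alone lay on the same side of mimic NC as RIGI, which encodes RIG-I, and IFIH1, which encodes MDA5, in all 5 comparisons. After let-7e-5p its side rested on 0.16 log2, and the median absolute difference over all named probe sets above background was also 0.16. TLR4 lay on the other side only in that comparison (-0.27). The share of all named probe sets with the same 5 directions was not counted. After let-7d-3p RIGI was lower by 0.54 log2 and IFIH1 by 0.55, and after miR-146a-5p they were higher by 0.47 and 0.56, over a narrower span than TLR3. After each gene was centred on its mean over the 6 arrays, the root mean square difference from IFIH1 was 0.264 for TLR3, 0.311 for TLR1 and 0.32 for TLR4, against 0.786 for TLR7. From RIGI it was 0.287 for TLR3, but 0.241 for TLR1 and 0.261 for TLR4, so by this measure TLR3 was not the receptor nearest to RIGI. In the wider list of other RNA sensors and their effectors, 8 of 9 genes above background were lower after let-7d-3p (median -0.52), 9 of 9 were lower after miR-130a-3p (-0.24), 8 after miR-151a-3p (-0.2), 7 were higher after let-7e-5p (0.17) and 9 after miR-146a-5p (0.36). Of all 12290 named probe sets above background on at least 1 array, 52.4% were lower after let-7d-3p, 48.2% after miR-130a-3p and 45.3% after miR-151a-3p, and 48.6% were higher after let-7e-5p and 50.4% after miR-146a-5p. These shares stand beside the counts of the lists below as well. None of the 9 passed 1.5-fold in any comparison.

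**Figure D4:**
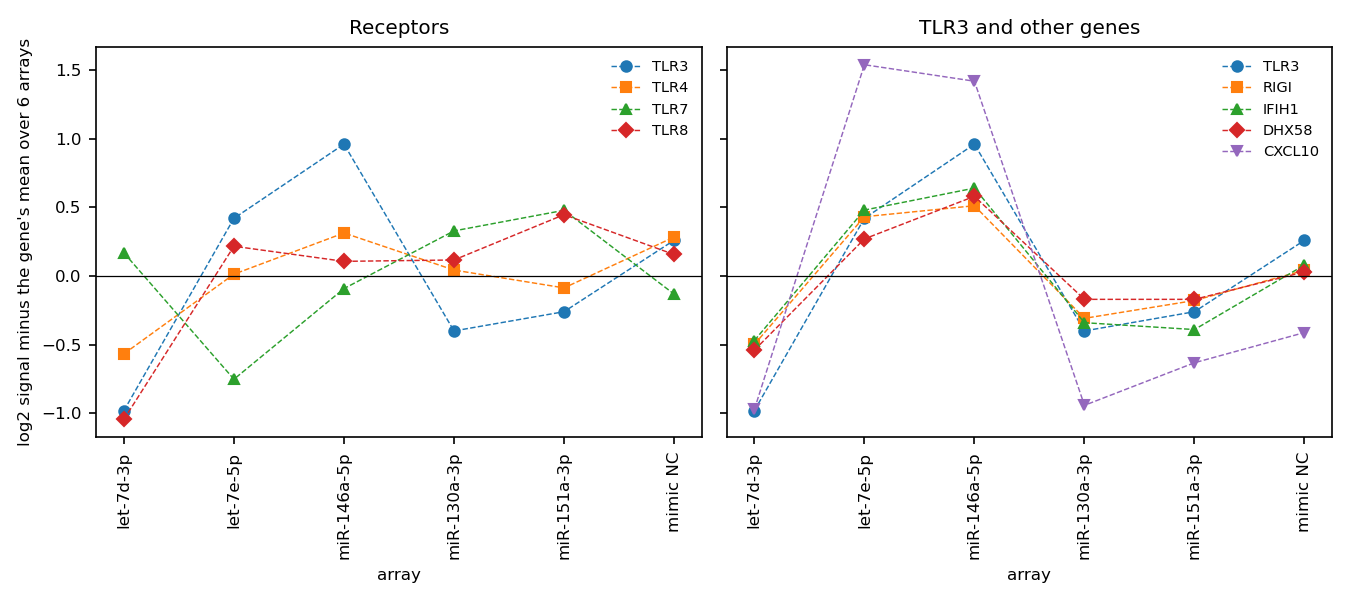
Log2 signal minus each gene's own mean over the 6 arrays (1 array each; lines only join the points of a gene), for TLR3, TLR4, TLR7 and TLR8 at the left and for TLR3 beside RIGI, IFIH1, DHX58 and CXCL10 at the right. TLR3 and TLR8 are lowest after let-7d-3p and TLR7 after let-7e-5p; the genes at the right are high after let-7e-5p and miR-146a-5p, where the uncentred signal of CXCL10 was 15.54 and 15.42 against 13.59 after mimic NC.

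Among 10874 named genes above background on all arrays, those with the smallest root mean square difference from TLR3 over the 6 arrays were OASL, related to the antiviral oligoadenylate synthetases (0.128), GMPR, a guanosine monophosphate reductase (0.151), CASP10, a caspase (0.152), SECTM1, a secreted and transmembrane protein (0.154), and TRIM22, an antiviral ubiquitin ligase (0.157). OASL had 11.4 after let-7d-3p and 13.35 after miR-146a-5p, its lowest and highest signals. Nearest to TLR8 was the zinc importer SLC39A6 (0.093), which had 9.64 after let-7d-3p and between 11.01 and 11.21 on the other arrays, followed by ZNF35, NXT2, RBBP4 and MAP3K14. For TLR7 the nearest were SH2D3C (0.097), INTS2, SLC25A10, RGS19 and ABCA5, and for TLR4 SLC25A52 (0.06), SIGLEC1, a sialic acid receptor of macrophages (0.063), CHODL, SLC38A5 and TMEM101. The 4 lists share no gene.

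The promoters of TLR3 and TLR8 are shown. Both genes had their lowest signal after let-7d-3p, as TLR1, TLR2 and TLR4 also had, and TLR3 and TLR8 differed on the other arrays. RefSeq promoters (GRCh38.p14) were matched for 7 of the 10 receptors. The entries for TLR1, TLR7 and TLR10 are named only. A core of the interferon-stimulated response element, GAAANNGAA on either strand, and the gamma-activated sequence, TTCNNNGAA, which reads the same on both strands, were searched in each promoter of the table. Capitals mark matches in 156 bases that end 6 bases past the start, at chr4:186069006-186069161 for TLR3 and chrX:12906470-12906625 for TLR8, both on the plus strand.
TLR3: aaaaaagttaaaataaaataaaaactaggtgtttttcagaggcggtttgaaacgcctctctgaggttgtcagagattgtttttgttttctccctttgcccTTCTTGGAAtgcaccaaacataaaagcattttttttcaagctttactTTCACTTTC
TLR8: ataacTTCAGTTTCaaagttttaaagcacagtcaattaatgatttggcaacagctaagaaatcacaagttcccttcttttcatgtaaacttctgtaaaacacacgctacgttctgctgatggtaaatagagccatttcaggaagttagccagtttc
In TLR3 the last 9 bases shown are a match of the response element core, read on the other strand, and the earlier capitals one of the gamma-activated sequence, which has a further match upstream of the stretch shown. In TLR8 the single match is of the core, also on the other strand. The core was found in TLR3 and TLR8, 2 of the 7 receptor promoters, and in 8.11% of 35116 promoters, and the gamma-activated sequence in TLR3 alone of the 7 and in 7.66% of all. The promoters of TLR2 and TLR4, also lowest after let-7d-3p, held no match of either. Whether a match goes with the signals was not tested. A match of such short letters is a description of the sequence and not a binding site.

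The genes around the receptors are given by their roles. Over all 12290 named probe sets above background on at least 1 array, between 4.91% and 7.9% passed 1.5-fold in either direction in a comparison. Among co-receptors, CD14, which hands lipopolysaccharide to TLR4, had 10.76 after let-7d-3p, 10.68 after let-7e-5p, 11.26 after miR-146a-5p, 11.39 after miR-130a-3p and 11.54 after miR-151a-3p, against 10.89 after mimic NC, and passed 1.5-fold only after miR-151a-3p. CD180, a TLR4-like receptor, passed it after miR-146a-5p, where it was lower by 0.69 log2 (14.45 against 15.14). LY96, which encodes the TLR4 partner MD-2, was below mimic NC on all 5 mimic arrays, from 8.02 after miR-146a-5p to 8.31 after miR-151a-3p against 8.49. All 7 co-receptors above background were lower after let-7d-3p, with a median of -0.11.

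Chaperones bring endosomal receptors to their compartment, and proteases cut them there. UNC93B1, the chaperone of the endosomal receptors, was 13.32 after let-7d-3p, 13.78 after let-7e-5p, 13.93 after miR-146a-5p, 13.5 after miR-130a-3p and 13.52 after miR-151a-3p, against 13.69 after mimic NC. It was lowest after let-7d-3p and highest after miR-146a-5p, as TLR3 was, over a smaller range. TASL, an adaptor of endosomal receptors for IRF5, was lower by 0.37 log2 after let-7d-3p and higher by 0.34 and 0.35 after let-7e-5p and miR-146a-5p. None of the 10 chaperone and trafficking genes above background passed 1.5-fold (8 lower after let-7d-3p, median -0.125, and 8 lower after miR-130a-3p, median -0.125). Of 9 proteases and nucleases only LGMN, a lysosomal endopeptidase, passed it, after let-7d-3p (8.05 against 8.68, 1.55-fold lower).

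The shared adaptor MYD88 was 13.43 after let-7d-3p, 13.95 after let-7e-5p, 14.17 after miR-146a-5p, 13.47 after miR-130a-3p and 13.91 after miR-151a-3p, against 13.98 after mimic NC, 1.46-fold lower after let-7d-3p. TICAM1, through which TLR3 signals, was within 0.36 log2 of mimic NC, and no adaptor passed 1.5-fold. TRAF6, the ubiquitin ligase below MyD88 and a known miR-146a target, had its lowest signal after miR-146a-5p (10.58 against 11.05 after mimic NC, 1.39-fold lower), and between 10.85 and 11.08 on the other mimic arrays. IRAK1, IRAK4 and TICAM2 were not among the named probe sets and were not analysed here.

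Of the 16 kinases and ubiquitin ligases above background, CHUK, a kinase that activates NF-kB, was higher than mimic NC with all 5 mimics, by 0.71 log2 after let-7d-3p and 0.76 after miR-130a-3p, and mimic NC was its lowest array (6.47). IRAK2 was 6.79 after miR-130a-3p, its lowest, and 8.17 after miR-151a-3p, its highest, against 7.54 after mimic NC. PELI2 was below background after mimic NC (5.11), and counted from background it was at least 1.54-fold higher after let-7e-5p and at least 1.48-fold higher after miR-151a-3p. Among 10 transcription factors IRF7, a factor of the interferon response, was 1.91-fold higher after miR-146a-5p (7.23 against 6.3) and 1.58-fold higher after let-7e-5p (6.96), and ATF3, which restrains receptor signals, was 1.83-fold lower after miR-130a-3p (11.14 against 12.01). After miR-146a-5p 9 of these 10 factors were higher (median 0.19). The signal of IRF3, a factor below TRIF, was below background on all arrays, from 4.2 after let-7e-5p to 5.25 after miR-146a-5p. Whether its probe set reports the gene was not tested.

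Of 12 inhibitors of the pathway, 10 were higher after let-7e-5p (median 0.185) and 10 after miR-146a-5p (0.17), and 10 were lower after miR-130a-3p (-0.13). TRAFD1, a feedback inhibitor, was the only one past 1.5-fold, after miR-146a-5p (11.69 against 10.99). Of 7 target cytokine genes above background, CXCL10, an interferon-induced chemokine, was higher by 1.95 log2 after let-7e-5p and 1.83 after miR-146a-5p. Its log2 difference from mimic NC was -0.56 after let-7d-3p, -0.53 after miR-130a-3p and -0.22 after miR-151a-3p. CXCL8, which attracts neutrophils, was 13.19 after let-7d-3p and 13.12 after let-7e-5p, against 12.38 after mimic NC, and 12.1 after miR-146a-5p. IL23A passed 1.5-fold after miR-146a-5p, at 1.52-fold higher. IL6, IL12B, IL10 and IFNB1 were below background on all arrays.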

How the data were processed

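THP-1 cultures were profiled on 6 Affymetrix Human Clariom S arrays. The authors deposited log2 signals per probe set, made, per the submitters' processing notes, by RMA in Transcriptome Analysis Console 4.0. RMA corrects background, normalizes arrays together and summarises probes. Its settings and the genome build were not given in the sources used here. RMA can shrink differences of dim probe sets, and rounding to 2 decimals limits small ones. All 6 columns were used.

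Of 21448 probe sets 17709 (82.6%) carried 1 symbol, and all their Entrez identifiers matched RefSeq. Several probe sets of a gene were averaged. The log2 signal of mimic NC was subtracted from that of each mimic, in Python 3.11.15 with pandas 2.3.3, numpy 2.4.6 and statsmodels 0.14.6. Where the dimmer signal was at or under background, the fold was counted from background. With 1 array per group no test was made. Receptors and lists were chosen with earlier results of these data known. Named were all receptors, up to 2 highest and 2 lowest members of each list, and the 5 genes nearest to TLR3, TLR4, TLR7 and TLR8. TRAF6, CXCL10, RIGI and IFIH1 were also named, RIGI and IFIH1 with values after let-7d-3p and miR-146a-5p only. CD14 after let-7e-5p, UNC93B1 after let-7e-5p, miR-146a-5p and miR-151a-3p, TASL after let-7d-3p, CHUK after miR-151a-3p, and list members below background fell outside that rule and were chosen after their values were seen. The functions were tested on simulated data.

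Tried besides were another comparator (the median over the 4 remaining mimics), quantile normalization once more, centring on array medians, subtracting a lowess fit against level (span 0.3), adding 32 to linear signals, thresholds of 2-fold and 1.3-fold, means for medians, 2 other backgrounds, leaving out receptors, and, added after the values were seen, both arrays above background.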

Additional observations from a re-analysis of the deposited data

How the results depend on the processing

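No receptor past 1.5-fold against mimic NC on the deposited signals changed direction under any scaling or comparator tried. TLR5 after let-7e-5p was not past it there, at -0.18. It was 0.67 above the median of the other 4 mimics, which was 5.09 and under background. Against the median of the other 4 mimics, the median over the 10 receptors was -0.32 after let-7d-3p and -0.06 after miR-151a-3p, and the endosomal minus surface difference -0.16 after miR-146a-5p and 0.30 after miR-151a-3p. With that comparator 2 receptors were higher after let-7e-5p, 0 were lower after miR-146a-5p and miR-130a-3p, and 0 passed either way after miR-151a-3p. As means, the receptors gave 0.01 after let-7e-5p, 0.00 after miR-130a-3p and -0.02 after miR-151a-3p, and the class difference was 0.22 after miR-146a-5p and 0.27 after miR-151a-3p. Over the receptors above background on all arrays the class difference was -1.0 after let-7d-3p and -0.14 after let-7e-5p. Leaving out 1 receptor at a time, it lay between -1.03 and 0.47 after let-7d-3p. With the lowess trend removed it was 0.30 after miR-151a-3p. After miR-151a-3p TLR7 lay just past 1.5-fold, and 0 were higher with repeated quantile normalization, centring, the lowess step or the pseudocount. There 2 were lower with centring or the lowess step, TLR5 and also TLR3, at -0.60 and -0.59 against -0.52. With the pseudocount 0 were lower after let-7e-5p, miR-146a-5p and miR-151a-3p, and 1 after miR-130a-3p. At 2-fold TLR3 and TLR8 were left after let-7d-3p, and 1 lower after miR-130a-3p, TLR5, whose deposited difference of -1.01 uses a signal under background and is bounded only at 1.47-fold. All other counts at 2-fold were 0. At 1.3-fold 2 were higher after miR-146a-5p, 1 after miR-130a-3p, and 2 lower after miR-151a-3p. With both arrays above background, chosen after seeing the data, 0 were lower after miR-146a-5p and miR-151a-3p and 1 after miR-130a-3p. By Pearson correlation 1 of the 5 genes nearest to each of TLR3, TLR4, TLR7 and TLR8 was kept. The number of receptors above background on at least 1 array was 8 with the 99th percentile of the olfactory receptors and 9 with the 20th percentile of all probe sets. No paired analysis was possible because every array was alone in its group. The spread between cultures given the same mimic was not measured, and signal over background limits TLR5, TLR8, TLR9 and TLR10.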
